A study of Homo sapiens with 18 samples.

Results

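IACS-9571 was set against DMSO, the solvent control, after 4 h in MOLM-13, a human acute monocytic leukaemia cell line. The compound is a ligand for bromodomains, protein modules that read acetylated histones, and its known targets are TRIM24 and BRPF1. The comparison took every gene row with at least 1 FPKM in either group and left out the spike-in RNAs, which gave 11004 of 23621 gene rows. FPKM are counts of read fragments corrected for transcript length and sequencing depth. The difference of each row was log2(FPKM + 1) with IACS-9571 minus that with DMSO, a scale that understates the change of low genes, and rows at 1 or more either way are called past 2-fold.

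The series held 18 samples of MOLM-13 in 6 groups of 3, which were treated with DMSO, with IACS-9571 or with dTRIM24 and taken at 4 h or at 24 h, and 6 of these samples were compared here. No genetic change is given for any group, and every group carried the solvent or a compound in the same line grown in serum-containing medium. dTRIM24 is a conjugate of a TRIM24 bromodomain ligand and a ligand of VHL, the receptor subunit of a ubiquitin ligase, so it can place that ligase on TRIM24. The labels name no dose, so the compounds could not be matched by dose. The deposited table has 1 mean for each group, so each value below is a mean of 3 libraries with no error, no difference was tested and depth is unknown. At the edge of the expression filter, OCLN was just inside with 1.0004 FPKM in DMSO and ZNF568 was just outside with 0.9996 FPKM with IACS-9571.

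Cells make cholesterol from acetyl-CoA through mevalonate, farnesyl diphosphate and squalene. The membrane-bound transcription factors SREBP-1 and SREBP-2 switch on the genes of this pathway, of sterol uptake and of fatty acid synthesis when sterols in the endoplasmic reticulum run low. SCAP carries SREBP to the Golgi for cleavage, while INSIG proteins hold the complex back when sterols are plentiful. SREBP binds sterol regulatory elements in promoters, often beside a CCAAT box bound by NF-Y.

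Of the rows that are not small RNAs by name, 28 of 10847 (0.258%) were past 2-fold higher with IACS-9571 and 4 (0.0369%) were past 2-fold lower. The 28 still hold non-coding RNAs under other names, the SNAR-A rows and RPPH1, and the 4 hold SNAR-B1. Among protein-coding rows, a setting added after the data were seen, 21 were past 2-fold higher and 0 lower. Genes of sterol and fatty acid metabolism made up 17 of the 28. These came from 4 lists with 52 genes, of which 50 passed the expression filter, 45 were above DMSO and 5 were below it. The median difference of the 50 genes was 0.60, against -0.00 for the 10797 other rows, of which 49.6% were above DMSO. With the small RNAs included, 80 rows (0.727%) were past 2-fold higher and 44 (0.400%) lower, and the small RNAs are described last because most of those calls set a high value against one near the lowest of the table.

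**Figure D1:**
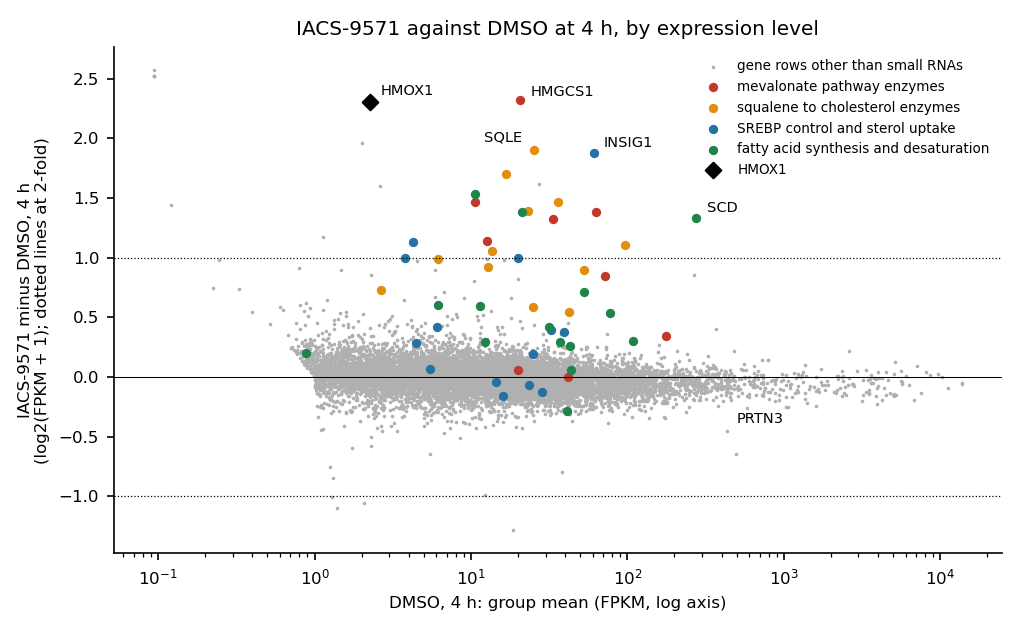
Each point is a gene row that is not a small RNA by name, with its DMSO mean at 4 h in FPKM on a log axis. The other axis is its difference with IACS-9571 on the log2(FPKM + 1) scale, and dotted lines mark 2-fold. Most grey points lie in a narrow band around 0, and 17 coloured points of the 4 lipid lists and the black point of HMOX1 lie above the upper line.

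The width of that band gives the scale for the values that follow. Differences of the 10847 rows had an SD of 0.157, with 95% of rows between -0.24 and 0.26, and 99.4% of rows were within 1.5-fold. The band was about as wide at every level: the SD was 0.157 for rows at 1 to 2 FPKM, 0.143 at 20 to 100 FPKM and 0.166 at 100 FPKM or more. For the 25 spike-ins with at least 5 FPKM in both groups, the median difference was -0.01 and the SD was 0.108, with a range from -0.27 to 0.19. These are spreads over RNAs and do not replace a replicate error. Differences also followed the GC content of the transcript, with a median of 0.05 in the lowest of 10 bins of rows by GC content (38.5% GC) and -0.10 in the highest (63.8% GC). The lipid genes past 2-fold lay at both ends, from MSMO1 with 38.1% GC to MVD with 63.9% GC.

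The promoters of 4 genes past 2-fold and of SREBF2 are shown because they differ in the elements known for SREBP control. The sequences are the 250 bases before the RefSeq start in GRCh38.p14, read 5′ to 3′ on the strand of the gene. Capitals mark CCAAT or its complement ATTGG, the E-box CACGTG, and the sterol regulatory element TCACNCCAC.
HMGCS1, chr5:43313413-43313662, minus strand: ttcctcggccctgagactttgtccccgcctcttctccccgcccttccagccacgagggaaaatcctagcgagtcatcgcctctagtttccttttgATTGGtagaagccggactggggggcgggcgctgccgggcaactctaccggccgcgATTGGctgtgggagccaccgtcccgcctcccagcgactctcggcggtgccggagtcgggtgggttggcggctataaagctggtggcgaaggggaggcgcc
MSMO1, chr4:165327419-165327668, plus strand: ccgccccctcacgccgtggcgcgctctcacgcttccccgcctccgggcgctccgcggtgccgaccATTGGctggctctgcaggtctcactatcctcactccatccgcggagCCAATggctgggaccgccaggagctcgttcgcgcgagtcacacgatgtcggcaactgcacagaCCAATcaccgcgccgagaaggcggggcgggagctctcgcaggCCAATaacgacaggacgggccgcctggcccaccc
MVK, chr12:109573544-109573793, plus strand: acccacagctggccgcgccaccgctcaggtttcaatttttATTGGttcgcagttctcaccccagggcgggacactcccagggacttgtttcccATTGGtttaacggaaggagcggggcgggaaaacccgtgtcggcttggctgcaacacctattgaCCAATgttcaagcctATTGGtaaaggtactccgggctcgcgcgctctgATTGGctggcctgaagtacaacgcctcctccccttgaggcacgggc
INSIG1, chr7:155297628-155297877, plus strand: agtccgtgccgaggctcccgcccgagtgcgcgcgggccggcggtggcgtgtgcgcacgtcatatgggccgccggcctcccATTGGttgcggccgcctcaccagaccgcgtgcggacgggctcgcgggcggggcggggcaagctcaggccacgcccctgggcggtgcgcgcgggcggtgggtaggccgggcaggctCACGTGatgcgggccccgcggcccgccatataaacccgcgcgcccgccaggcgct
SREBF2, chr22:41832855-41833104, plus strand: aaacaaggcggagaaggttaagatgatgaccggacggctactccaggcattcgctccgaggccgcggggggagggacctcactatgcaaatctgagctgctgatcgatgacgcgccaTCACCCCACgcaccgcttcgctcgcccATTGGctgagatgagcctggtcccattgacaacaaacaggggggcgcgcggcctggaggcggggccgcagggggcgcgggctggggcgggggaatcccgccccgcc
HMGCS1 has 2 CCAAT matches in this stretch, MSMO1 has 4 and MVK has 5. INSIG1 has 1 CCAAT match and 1 E-box, and SREBF2 has 1 CCAAT match and 1 sterol regulatory element.

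Motif counts were made in windows of 300 bases, 250 before and 50 after each start, on both strands, and 13 of the 17 lipid genes had a window. FDFT1 and SQLE were among those with none. CCAAT, a motif chosen after the data were seen, was in 12 of the 18 windows of these genes (66.7%), against 34.6% of all 35116 windows and 35.2% of the 12619 windows of genes that passed the filter. Counted by gene, 11 of 13 genes (84.6%) had a CCAAT match in at least 1 window, against 43.8% of genes that passed the filter. DHCR7, FADS2, HSD17B7, IDI1, MVD, SCD and STARD4 were the others with a match besides HMGCS1, INSIG1, MSMO1 and MVK. TCACNCCAC was in 0 of the 18 windows and in 1.13% of all windows. The looser TCACNCCNC, which includes it, was in 1 window, that of IDI1, and in 6.41% of the windows of genes that passed the filter. CACGTG was in 1 window, against 7.26% of all windows, and TGACNNNGC, the core of the antioxidant response element, was in 1 window of HMGCS1, against 13.3% of all windows. A match describes letters in a window, and no match says only that the letters are not in it.

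The first steps, from acetyl-CoA to farnesyl and geranylgeranyl diphosphate, were measured through 9 enzymes, of which 5 were past 2-fold and 0 below DMSO. Their median difference was 1.14. HMGCS1, which makes HMG-CoA, had 20.7 FPKM with DMSO and 108 FPKM with IACS-9571, a ratio of 5.20 and the largest of the lipid genes. MVK, which phosphorylates mevalonate, went from 10.7 to 31.4 FPKM (difference 1.47). MVD, which decarboxylates its diphosphate, went from 12.6 to 29.03 FPKM (1.14), and IDI1, the isomerase that follows, from 63.4 to 167 FPKM (1.38).

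The enzymes of these steps that were under 2-fold numbered 4. ACAT2, the thiolase that joins acetyl-CoA units, had 71.5 and 130 FPKM (0.85). FDPS, which makes farnesyl diphosphate and had the highest DMSO level of the list, had 176 and 224 FPKM (0.35). PMVK, the kinase between MVK and MVD, had 41.5 FPKM in both groups (0.00). GGPS1, which makes geranylgeranyl diphosphate for protein prenylation and so leaves the sterol route, had 20.01 and 20.8 FPKM (0.06, and -0.01 once the trend with GC content was taken out). Enzymes of these steps therefore ranged from no difference to more than 5-fold. Summed over the 9 enzymes, the level was 450 FPKM with DMSO and 836 FPKM with IACS-9571.

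All 12 enzymes from squalene to cholesterol were above DMSO, from 0.54 for EBP to 1.90 for SQLE, with a median of 1.03 and 6 past 2-fold. FDFT1, squalene synthase and the first step committed to sterols, had 96.3 and 208 FPKM (1.10). SQLE, squalene epoxidase and a rate-limiting enzyme of the sterol route, had 25.2 and 97.0 FPKM (1.90). CYP51A1, the lanosterol demethylase, had 35.9 and 101 FPKM (1.47), and MSMO1, the C4 methyl sterol oxidase, 16.7 and 56.7 FPKM (1.70). HSD17B7, which reduces the C3 ketone of sterol intermediates, had 13.6 and 29.5 FPKM (1.06), and DHCR7, the last enzyme of one branch, had 23.2 and 62.7 FPKM (1.39). High and low enzymes of the list moved alike in direction: the sum was 352 FPKM with DMSO and 797 FPKM with IACS-9571.

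In this stretch 6 enzymes stayed under 2-fold. SC5D, the sterol desaturase listed under its older name SC5DL, had 6.20 and 13.3 FPKM, just under the threshold at 0.99. LSS, which closes the sterol rings, had 12.8 and 25.1 FPKM (0.92). TM7SF2 had 2.65 and 5.06 FPKM (0.73); it shares the C14 reductase step with the lamin B receptor. NSDHL, which removes C4 carboxyl groups, had 25.02 and 38.0 FPKM (0.58), and EBP, the sterol isomerase, had 42.1 and 61.8 FPKM (0.54).

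Among 14 measured genes of SREBP control and sterol uptake, 10 were above DMSO and 3 were past 2-fold, with a median of 0.33. INSIG1, the feedback brake on SREBP transport, had 60.9 and 226 FPKM (1.88). STARD4, a cytosolic sterol carrier, had 4.25 and 10.5 FPKM (1.13). LPIN1, a phosphatidate phosphatase, had 3.78 and 8.55 FPKM, narrowly under the threshold at 0.99999. INSIG1 had the largest difference of the 14.

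Apart from INSIG1, the genes that encode SREBP and the machinery that senses sterols and cuts it were under 2-fold. That is near the share over all rows that are not small RNAs by name (0.258% higher and 0.0369% lower). SREBF2, which encodes SREBP-2, had 39.1 and 51.3 FPKM (0.38), while SREBF1 had 28.4 and 25.9 FPKM (-0.13). SCAP had 16.0 and 14.3 FPKM (-0.16). The proteases MBTPS1 and MBTPS2 had differences of -0.07 and 0.07, the latter at -0.00 once the GC trend was taken out. INSIG2, the second INSIG gene, had 4.45 and 5.64 FPKM (0.28).

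Sterol trafficking genes lay between. NPC1, which exports cholesterol from lysosomes, had 6.09 and 8.47 FPKM (0.42), and its partner NPC2 had 24.8 and 28.5 FPKM (0.19). TMEM97, the sigma-2 receptor that binds NPC1, had 32.7 and 43.2 FPKM (0.39).

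Of 15 measured genes of fatty acid synthesis and desaturation, 14 were above DMSO and 3 were past 2-fold, and all 3 were desaturases. SCD, which makes oleate from stearate, had 276 and 696 FPKM (1.33), the highest level of the list in both groups. The sum of the list was 775 FPKM with DMSO and 1383 FPKM with IACS-9571. FADS1 and FADS2, the delta-5 and delta-6 desaturases of polyunsaturated fatty acids, had 10.6 and 32.4 FPKM (1.53) and 21.1 and 56.6 FPKM (1.38). FADS1 and FADS2 are neighbours in the genome. The median of the list was 0.42.

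The enzymes that supply and build fatty acids had smaller differences. FASN, the fatty acid synthase, had 52.8 and 87.3 FPKM (0.72). ACLY, which makes acetyl-CoA from citrate, had 77.4 and 112 FPKM (0.53), and ACSS2, which makes it from acetate, had 6.16 and 9.90 FPKM (0.61). ACACA, the carboxylase that commits acetyl-CoA to fatty acids, had 12.2 and 15.3 FPKM (0.30), and SLC25A1, the citrate carrier, had 43.2 and 51.8 FPKM (0.26). ME1, which supplies NADPH, had a difference of 0.59. Elongases differed from 0.06 for ELOVL1 to 0.30 for ELOVL5. Among the acyl-CoA synthetases ACSL4 was at 0.42 and ACSL3 at 0.30, while ACSL1 had 41.1 and 33.6 FPKM (-0.28), the lowest difference of the 50 lipid genes.

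**Figure D2:**
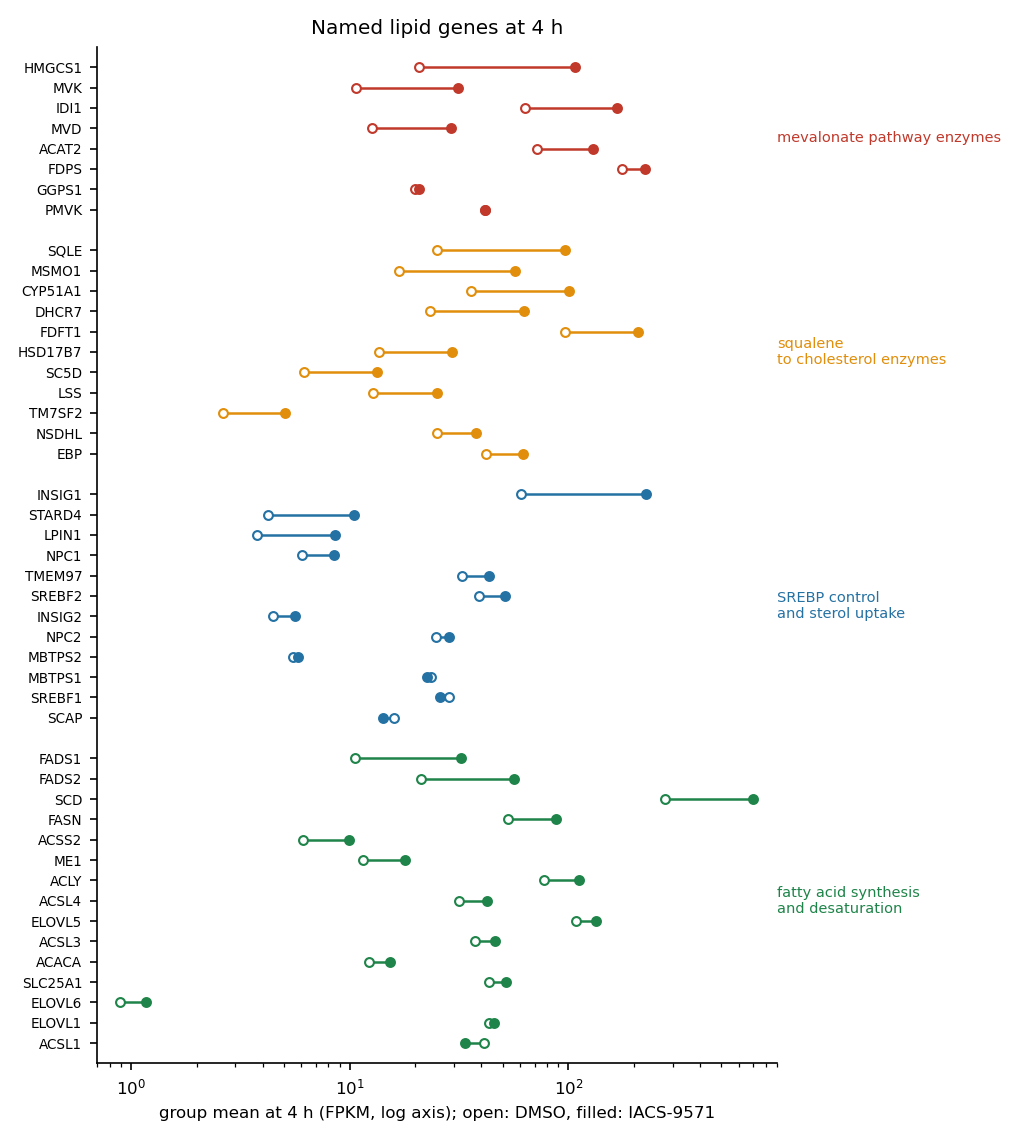
Group means at 4 h in FPKM on a log axis for 46 of the 50 lipid genes that passed the expression filter, open for DMSO and filled for IACS-9571, ordered by difference within each list. Filled points lie to the right for 42 of the 46 genes, the lines are longest for HMGCS1, SQLE and INSIG1, and PMVK has both points at 41.5 FPKM.

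For LXR, the nuclear receptor that responds to oxysterols and drives sterol efflux, and its targets, 6 genes of 10 were measured and 0 were past 2-fold. That is near the share over all rows that are not small RNAs by name (0.258% higher and 0.0369% lower). The median of the 6 was 0.02. With a floor of 5 FPKM that median was -0.06. MYLIP, a ubiquitin ligase induced by LXR, had 11.6 and 8.82 FPKM (-0.35). SCARB1, the HDL receptor, was at 0.10, SMPDL3A at 0.12, LPCAT3 at 0.01, NR1H2 at -0.14 and NR1H3 at 0.03. The last became -0.02 under quantile normalization. ABCA1, ABCG1, APOE and ABCG4, efflux genes and their carrier, did not pass the filter, so sterol efflux could hardly be read in this line.

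The place of the lipid genes in the whole comparison was read from 7707 protein-coding rows with at least 5 FPKM in both groups, of which 45 were in the 4 lists. Of the 10 largest differences upward 9 were lipid genes, of the 20 largest 18, and of the 50 largest 26, with the 50th at 0.42. This floor in both groups left out 3 protein-coding rows past 2-fold outside the lipid lists: HMOX1 (2.31), EIF3CL (1.44) and SLCO4C1 (1.18). It also left out the lipid gene STARD4 (1.13). The members were chosen with earlier results of these data known, so these counts describe the order and are no independent support. The exceptions among the first 20 were H3F3A and PPARD. GLO1, which detoxifies methylglyoxal, had 265 and 481 FPKM (0.86) and stood among the first 30 with C14orf1, now named ERG28, an endoplasmic reticulum scaffold of sterol enzymes with 20.1 and 36.4 FPKM (0.83). PANK3, which makes the first intermediate of coenzyme A, had 20.6 and 28.9 FPKM (0.47), and EDEM1, which sends misfolded glycoproteins to degradation, had 25.5 and 34.8 FPKM (0.44).

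Genes that lie beside the 17 lipid genes were mostly level. Of their immediate protein-coding neighbours, 18 passed the filter and were not lipid genes, 0 were past 2-fold, 10 were above DMSO and the median difference was 0.01. A count of 0 is near the share over all rows that are not small RNAs by name (0.258% higher and 0.0369% lower). FEN1, next to FADS1, had 79.8 and 79.6 FPKM (-0.00). The range was from -0.26 for CYBA, next to MVD, to 0.56 for MMAB, next to MVK. MMAB, an enzyme of cobalamin metabolism, had 13.4 and 20.2 FPKM. PPARD and the 3 neighbours named were chosen after their values were seen.

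HMOX1, haem oxygenase, was the 1 gene past 2-fold among 25 measured genes of the NRF2 and haem oxygenase list, whose median was 0.09. It had 2.27 FPKM with DMSO and 15.2 FPKM with IACS-9571 (2.31). Other members were far lower in difference. FTH1, the ferritin heavy chain, had 371 and 492 FPKM (0.40), GCLM, a subunit of the glutathione synthesis enzyme, 16.4 and 21.3 FPKM (0.36), and PIR 8.49 and 10.6 FPKM (0.29). In the list 19 genes were above DMSO and 6 were below.

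The remaining rows past 2-fold that were not small RNAs by name held several RNAs that are hard to assign. SNAR-A13, SNAR-A12, SNAR-A2 and SNAR-A1, near-identical copies of a short non-coding RNA, shared 1 value of 0.0945 FPKM with DMSO and 5.27 FPKM with IACS-9571. SNAR-A6 had 0.0945 and 5.51 FPKM, and SNAR-B1 went the other way with 18.4 and 6.98 FPKM. RPPH1, the RNA of RNase P, had 2.01 and 10.7 FPKM. H3F3A, a histone H3.3 gene with processed copies in the genome, had 27.2 and 85.3 FPKM (1.61). C6orf223, a non-coding transcript by RefSeq, had 2.63 and 9.998 FPKM (1.601). EIF3CL, a copy of EIF3C, SLCO4C1, LOC642423, LOC728875 and the read-through INO80B-WBP1 were past 2-fold with less than 5 FPKM in both groups. Reads of copies and read-throughs can be split between rows, so the differences of such rows are uncertain. That reason does not apply to C6orf223 and SLCO4C1.

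Of the direct targets of the compound, TRIM24 had 14.6 FPKM with DMSO and 17.6 FPKM with IACS-9571 (0.25), and BRPF1, the scaffold of the MOZ acetyltransferase complex, had 7.99 and 7.93 FPKM. The latter difference was -0.01, but 0.00 after rescaling to the spike-ins and 0.05 with the GC trend taken out. TRIM28, the co-repressor related to TRIM24, was at -0.17 and TRIM33 at 0.09. Among the other BRPF1 and MOZ complex genes, KAT6A, the MOZ acetyltransferase, was at 0.13 and KAT6B at 0.20, ING5 was at -0.17 and ING4 at 0.07, and BRD1, BRPF3, KAT7 and MEAF6 were between -0.03 and 0.02, KAT7 changing sign with the GC trend taken out. The medians were 0.09 over the 3 measured TRIM24 family genes and 0.02 over the 9 BRPF1 and MOZ complex genes, with 0 past 2-fold. With the GC trend taken out these medians were 0.02 and 0.05. Over all rows that are not small RNAs by name 0.258% were higher and 0.0369% lower, so 0 is near that share. Transcript levels do not measure binding to the proteins.

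Outside the lipid and NRF2 lists, 24 lists with 321 different genes that passed the filter held 0 genes past 2-fold. Over all rows that are not small RNAs by name the shares were 0.258% higher and 0.0369% lower. The 0 is near those shares and does not set these lists apart. Their medians ran from -0.23 to 0.09. Granule proteins had the lowest median: 9 of 10 genes were below DMSO, among them PRTN3 (430 and 314 FPKM, -0.45), AZU1 (-0.25), ELANE (-0.25) and MPO (-0.24). The sum of their levels was 6717 FPKM with DMSO and 5763 FPKM with IACS-9571, and the median became -0.17 with the GC trend taken out. Monocyte surface and effector genes had a median of -0.12 (-0.01 without the expression filter) with 10 of 12 below, including TLR2 (-0.23), FCGR1A (-0.21), ITGB2 (-0.20) and CD33 (-0.17). Of myeloid transcription factors, SPI1, which drives myeloid fate, had 80.1 and 65.4 FPKM (-0.29), GFI1 was at -0.13 and CEBPA at -0.11, and 7 of the 10 measured were below DMSO with a median of -0.07.

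HOXA, MEIS1 and MLL cofactor genes had a median of 0.09 with 16 of 18 above DMSO, among them HOXA7 (0.26), PSIP1 (0.18), HOXA9 (30.1 and 33.9 FPKM, 0.17) and AFF4 (0.15). BET proteins and markers also had a median of 0.09, with BRD2 at 73.4 and 86.6 FPKM (0.24). FLT3, the receptor kinase mutated in this line, had 95.8 and 104 FPKM (0.12), and the median of FLT3 and STAT5 signalling genes was -0.03. Of 16 retinoic acid receptors and targets only 7 were measured. The median was -0.08, but 0.00 without the expression filter and -0.02 with the GC trend taken out. Differences of the 7 ran from -0.24 to 0.51, with the receptors RXRA at -0.17 and RARA at -0.11.

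Of the stress and growth genes named here, EDEM1, CHAC1, ALDOC, CENPF and MKI67 lay outside the range from -0.24 to 0.26 that held most rows. The others lay inside it, and all were under 2-fold. In the unfolded protein response list, with a median of 0.00 and 10 of 20 genes above, EDEM1 was at 0.44 and SDF2L1 at -0.21 (36.9 and 31.8 FPKM). In the ATF4 list 16 of 21 genes were below DMSO with a median of -0.05, and CHAC1, which breaks down glutathione, was at -0.31 while DDIT4 was at 0.22. Of the heat shock genes 12 of 16 were above with a median of 0.06, and HSPA1B was at 0.21. Glycolysis genes were below in 12 of 14 cases with a median of -0.10, among them TPI1 (-0.17) and PGAM1 (-0.16), while ALDOC was at 0.34. Among mitosis genes CENPF (15.8 and 21.5 FPKM, 0.42) and MKI67 (21.2 and 28.5 FPKM, 0.41) were highest and CDC20 was at -0.19. Their median of 0.03 became -0.02 with the GC trend taken out.

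The other lists had medians between -0.10 and 0.08. They covered ribosome biogenesis (-0.04), S phase (-0.02, and 0.00 under quantile normalization), immediate early genes (-0.02, and 0.01 with the GC trend taken out), MYC network genes (0.04), NF-kB and inflammatory genes (0.07), p53 targets (0.07), HIF targets (0.08), BCL2 family genes (-0.06), interferon genes (0.04, and -0.01 with a floor of 5 FPKM) and MHC class II (-0.10). BTG2 (0.34) and KLF6 (0.30) were the highest immediate early genes with at least 5 FPKM, and JUNB was at -0.22. BIK, a pro-apoptotic BCL2 family gene, had 69.8 and 58.6 FPKM (-0.25). ISG15 was at -0.20 in the interferon list.

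**Figure D3:**
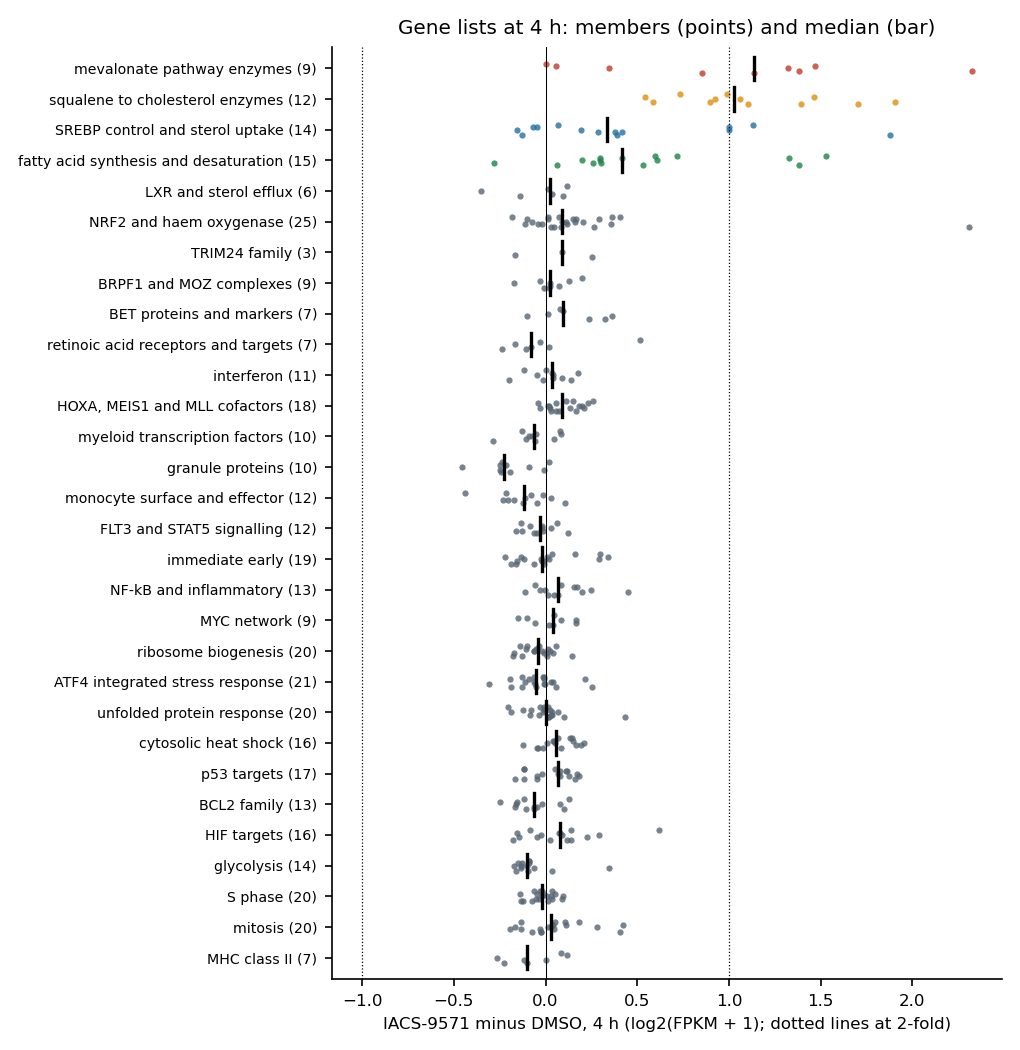
Each point is 1 measured member of a gene list, with its difference at 4 h on the log2(FPKM + 1) scale, the bar is the median of the list and the number in brackets is the count of members that passed the filter. The 4 lipid lists, in colour, have medians of 1.14, 1.03, 0.33 and 0.42, and among the grey lists only HMOX1 lies past a dotted line at 2-fold.

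Downward, 0 rows that RefSeq gives as protein-coding were past 2-fold. The largest differences among rows with at least 20 FPKM in the lower group were HYPK (38.3 and 21.7 FPKM, -0.79), a gene that overlaps its neighbour, and RPL21 (498 and 317 FPKM, -0.65), a ribosomal protein gene with many processed copies. PRTN3 followed at -0.45. PRSS57, another neutrophil serine protease, had 138 and 108 FPKM (-0.34), and RPS6KA1, CORO1A, NKG7 and IFITM3 were between -0.34 and -0.31. TUBA4A and the read-through COMMD3-BMI1 were at -0.37 and -0.39.

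All 8 markers fixed for the line passed the filter of 1 FPKM in either group, which is a low bar. CSF1R, 1 of the 8, had only 1.18 and 1.22 FPKM. Of the longer list of 19 monocyte surface and effector genes only 12 passed, so the monocytic label was borne out in part. Among those that did not pass, CD14, ITGAX and FCN1 had 0.207, 0.167 and 0.0914 FPKM with DMSO. LYZ had 458 and 401 FPKM, CD33 31.7 and 28.03 FPKM and CD68 30.4 and 27.8 FPKM. Of the markers of T and NK cells only CD4 and NKG7 of 9 passed, of B cells only PAX5 of 6, of erythroid cells 0 of 7, and of epithelial cells and fibroblasts only KRT18 and KRT8 of 9. NKG7 (32.0 and 25.5 FPKM) and KRT18 (29.7 and 23.8 FPKM) were lower with IACS-9571, and CD3E, CD3G and CD2 were at the low value shared by unexpressed rows. In bulk RNA a smaller number of cells of a type and less RNA per cell cannot be told apart.

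At 24 h, in other libraries, most of the lipid genes were near their DMSO level. Of the 17 genes past 2-fold at 4 h, 0 were past 2-fold at 24 h, 14 were above DMSO and 8 were within 0.1 of it. Few rows were past 2-fold at 24 h at all: 2 higher and 18 lower of 10649 that are not small RNAs by name. The 0 by itself therefore does not set these genes apart. Their median difference was 1.38 at 4 h and 0.13 at 24 h, beside a median of -0.02 and an SD of 0.176 for the other rows at 24 h. HMGCS1 had 18.7 FPKM with DMSO and 19.3 FPKM with IACS-9571 at 24 h (0.04), and INSIG1 had 53.03 and 55.0 FPKM (0.05). MSMO1, FDFT1 and HSD17B7 were slightly below DMSO, at -0.02, -0.01 and -0.07.

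The highest of the 17 at 24 h were FADS2 (15.1 and 22.9 FPKM, 0.57), FADS1 (8.84 and 12.1 FPKM, 0.42) and SQLE (21.3 and 26.2 FPKM, 0.29). Both polyunsaturated desaturases were thus further above DMSO than any sterol enzyme of the 17. HMOX1 had 1.42 and 1.86 FPKM at 24 h (0.24). GLO1 had 249 and 337 FPKM at 24 h (0.43). DMSO levels differed between the times too: all 17 genes were lower in DMSO at 24 h than at 4 h, by a median of -0.23, and the median over all rows was -0.22.

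dTRIM24 at 4 h was measured against the same DMSO mean, so the 2 comparisons are not independent, and doses are not known to match. Of the 17 genes 12 were past 2-fold with dTRIM24, with a median of 1.09, and 16 had a lower level than with IACS-9571. The share of all rows past 2-fold with dTRIM24 is not given here, so the 12 have no background beside them. The 17 were picked for high values with IACS-9571, so lower values with dTRIM24 follow in part from that choice. HMGCS1 had 81.1 FPKM with dTRIM24 and 108 FPKM with IACS-9571, INSIG1 had 196 and 226 FPKM, and MVD had 18.9 and 29.03 FPKM. STARD4 was the exception with 10.7 and 10.5 FPKM. HMOX1 was not above DMSO with dTRIM24, with 1.74 FPKM beside 15.2 FPKM with IACS-9571 and 2.27 FPKM with DMSO. PRTN3 had 317 FPKM with dTRIM24 and 314 FPKM with IACS-9571, and EDEM1 had 34.2 and 34.8 FPKM. None of these differences between the compounds was tested.

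**Figure D4:**
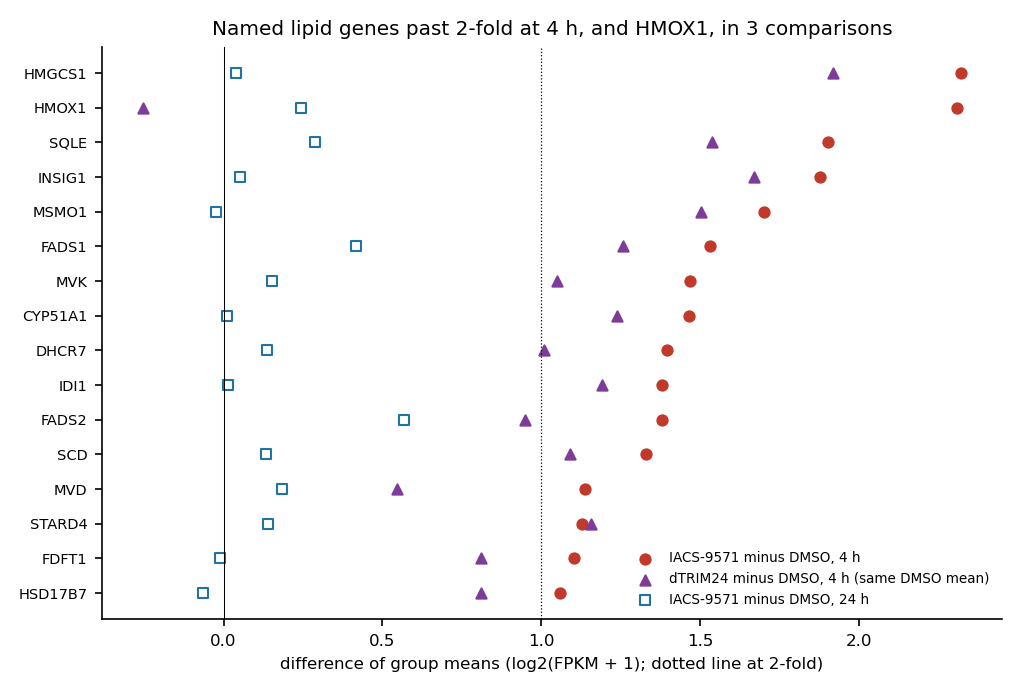
Differences on the log2(FPKM + 1) scale for 15 of the 17 lipid genes past 2-fold at 4 h and for HMOX1: IACS-9571 at 4 h (circles), dTRIM24 at 4 h (triangles) and IACS-9571 at 24 h (open squares), each minus DMSO of the same time. The open squares of the lipid genes lie between -0.07 and 0.57, all left of the dotted line at 2-fold, and the triangle of HMOX1 lies below 0.

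Small RNAs were the rows with the largest differences of either sign. Of 157 small RNA rows that passed the filter, 52 (33.1%) were past 2-fold higher and 40 (25.5%) were past 2-fold lower, shares far above those of the other rows in both directions. In 70 of these 92 rows the lower group was under 0.2 FPKM, near the value of 0.0914 (DMSO) or 0.09999 (IACS-9571) FPKM that 6059 gene rows share. The 20 largest differences each way among rows with at least 5 FPKM in one group were all small RNAs, of which 2 each way are given. SNORD87 had 0.0984 FPKM with DMSO and 1368 FPKM with IACS-9571, and MIR3607 had 0.0921 and 583 FPKM. In the other direction MIR3191 had 2214 and 0.0986 FPKM, and MIR4687 had 625 and 0.103 FPKM. The microRNA rows came from libraries whose size selection is not given, and these rows were not read as levels of mature microRNAs.

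The counts were near balance in each large class. Of 71 SNORA rows 20 were higher and 15 lower past 2-fold, of 38 SNORD rows 13 and 12, and of 40 MIR rows 13 and 12. The SD of small RNA differences was 2.09 among 53 rows at 5 to 20 FPKM and 5.94 among 26 rows at 100 FPKM or more, where the other rows had 0.166 at both levels. MIR1244-2 and MIR1244-3, copies of 1 microRNA gene, together held 24.2% of the DMSO column and 21.1% of the IACS-9571 column. Without them the column sums were 802492 and 779421 FPKM.

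**Figure D5:**
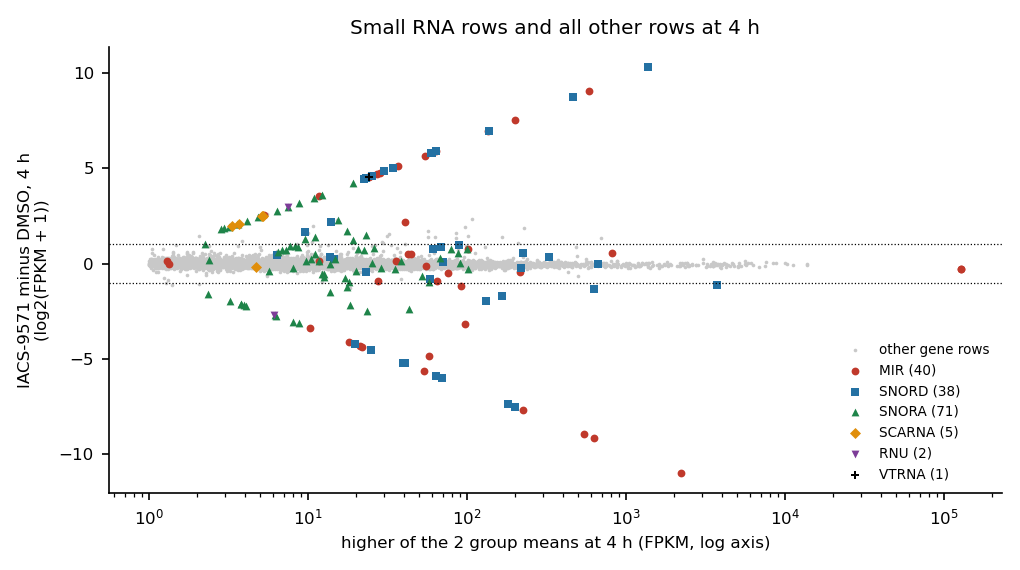
Each point is a row that passed the expression filter, with the higher of the 2 group means at 4 h in FPKM on a log axis and its difference on the log2(FPKM + 1) scale, coloured by small RNA class and grey for all other rows. Of 157 small RNA rows 92 lie past the dotted 2-fold lines on both sides, many on 2 curves where the other group is near 0.1 FPKM, while the grey rows stay close to 0.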

How the data were processed

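Samples were normalized by cell number and given ERCC spike-ins, per the labels' protocols. The authors deposited FPKM. TopHat2, Cuffnorm and hg19 are named in the submitters' processing notes, without versions, and neither the annotation nor the use of strand is stated there. It has 23713 rows, 92 of them spike-ins, and 1 mean column per group of 3 libraries. Groups were read from titles and time points, although the treatment protocol of every label states 24 h. Whether the 3 samples of a group were separate cultures is not stated.

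Differences were computed on log2(FPKM + 1) between DMSO and IACS-9571 at 4 h, with a floor of 1 FPKM in either group and a threshold of 2-fold. No test can be made on group means. Small RNAs were taken by name (MIR, SNORD, SNORA, SCARNA, RNU, RNY, VTRNA). Members, gene lists and rules were chosen with earlier results of these data known. The rule for named genes took the 20 largest rows each way past 2-fold that had 5 FPKM or more in one group (all small RNAs, of which 2 each way are printed), all members of the lipid, LXR, TRIM24 and BRPF1 lists, up to 4 members of each other list with the largest differences (5 FPKM or more), and the 10 largest differences each way under 2-fold among protein-coding rows with at least 20 FPKM in the lower group. Chosen after their values were seen were the other rows past 2-fold (SNAR genes, RPPH1, H3F3A, C6orf223 and those under 5 FPKM), PPARD, the neighbours, MIR1244-2 and MIR1244-3. Some members counted in the lists are not reported here by name.

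RefSeq tables of GRCh38.p14 gave symbols (98.1% of rows matched), biotypes, neighbours and promoter windows, and GENCODE v29 transcripts gave GC content (97.6% of rows); no coordinates of the authors' build were used. The alternatives were pseudocounts of 0.1 and 0.5, no floor and one of 5 FPKM, rescaling to the spike-ins, quantile normalization, centring on medians, small RNAs left out, subtraction of the shared low value, a cubic GC trend taken out and a 1.5-fold threshold. Steps were tested on simulated data. Versions were matplotlib 3.10.9, scipy 1.17.1, pandas 2.3.3, numpy 2.4.6 and Python 3.11.15.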

Additional observations from a re-analysis of the deposited data

Results flagged for a closer look

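The short non-coding RNAs SNAR-A13, SNAR-A12, SNAR-A2 and SNAR-A1 were higher with IACS-9571 than with DMSO at 4 h (0.0945 and 5.27 FPKM) and lower at 24 h (13.5 and 0.0975 FPKM), a difference at 24 h of -3.72 on the log2 scale for each of the 4 rows, which share their values. SNAR-A6 had the same opposite signs, with a difference of -3.79 at 24 h. RPPH1, the RNA of RNase P, had 23.5 FPKM with DMSO and 1.95 FPKM with IACS-9571 at 24 h, a difference of -3.05 after one of 1.96 at 4 h. These results stood out because their sign was opposite at the 2 times. For the SNAR-A rows the lower value at each time was near the low value shared by unexpressed rows. The DMSO means differed between the times too. From 4 h to 24 h SNAR-A1 went from 0.0945 to 13.5 FPKM in DMSO, and RPPH1 from 2.01 to 23.5 FPKM. Each value is 1 group mean, and the difference between the times was not tested. RPPH1 had 493 FPKM with dTRIM24 at 4 h, and SNAR-A1 had 35.8 FPKM.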

How the results depend on the processing

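All 17 lipid genes past 2-fold at 4 h stayed past 2-fold under each of 10 settings, the lowest at 1.0002 and with medians between 1.38 and 1.42. No floor, the floor of 5 FPKM and leaving out small RNAs cannot change the value of a gene, so those settings add nothing here. LPIN1 (1.16) and SC5D (1.09) also passed 2-fold with a pseudocount of 0.1. Medians of the 4 lipid lists were above 0 under every setting, but small medians of other lists depended on the setting: without the expression filter that of monocyte genes went from -0.12 to -0.01, that of retinoic acid genes from -0.08 to 0.00 and that of MHC class II genes from -0.10 to -0.03. Rows past 2-fold higher, 80 in all, numbered 28 without small RNAs, 126 at 1.5-fold and 21 among protein-coding rows, a setting added after the data were seen. Without small RNAs the 28 became 44 with a pseudocount of 0.1 and 59 at 1.5-fold. Rows past 2-fold lower, 44 in all, numbered 4 without small RNAs and 0 among protein-coding rows. Those 4 became 8 with a pseudocount of 0.1, 7 with 0.5, 1 with a floor of 5 FPKM, 1 with the GC trend taken out, 11 at 1.5-fold and 0 among protein-coding rows. The cause of these moves was not tested, except that the floor and the protein-coding setting leave fewer rows. The share of windows of the lipid genes past 2-fold with a motif was 0% for TCACNCCAC, 5.56% for TCACNCCNC and 66.7% for CCAAT. No paired analysis was possible because the deposited table holds 1 mean per group, and leaving out single replicates was not run for the same reason. Depth is unknown, so precision at low FPKM could not be given.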
